A study of Mus musculus with 9 samples.

Results

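The genes described here are the Toll-like receptors Tlr1 to Tlr9 and their shared adaptor Myd88, chosen by gene name from the deposited read count table, in which all 10 names were found among 46078 genes. Toll-like receptors are membrane proteins that recognise molecules made by microbes or released by damaged cells. TLR1, TLR2, TLR4, TLR5 and TLR6 read bacterial lipoproteins, lipopolysaccharide and flagellin at the cell surface, whereas TLR3, TLR7, TLR8 and TLR9 read nucleic acids inside endosomes. Every one of these receptors except TLR3 can signal through MyD88 to the IRAK kinases and NF-kB, while TLR3, and TLR4 from endosomes, use the adaptor TRIF. Macrophages, dendritic cells and other leukocytes carry many of them, and vascular endothelium is known for its response to lipopolysaccharide through TLR4.

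RNA-seq was performed on endothelial cells (ECs) sorted from the bone marrow (BM) of wild type B6 mice as CD45-Ter119-CD31+ cells and divided by Sca-1, the surface protein encoded by Ly6a. Sca-1+ cells (Sca-1high in the study, which places them along arterioles) gave 4 libraries, and Sca-1- cells (Sca-1low, placed along sinusoids) gave 5. No library came from treated, leukemic or genetically altered mice, and the age and number of the mice are not given in the sources used here. Libraries were named by fraction and by the number that ends their title: Sca-1+ 7, 13, 15 and 19, and Sca-1- 8, 10, 14, 16 and 22. The titles of Sca-1+ 13 and Sca-1- 14 and 22 hold the tag CD452, and that of Sca-1- 10 a shorter form of it. Those of Sca-1+ 15 and 19 and Sca-1- 8 and 16 hold the tag wt, and that of Sca-1+ 7 holds neither. The labels do not explain these tags, which are spread unevenly over the fractions. The labels do not say which libraries came from separate mice, so p-values measure the spread between these samples, which may be technical.

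Each library held 21581653 to 25959818 counts, without molecular identifiers. Levels are CPM, counts scaled to a common library size after TMM normalization, and 3 counts, the most that a count of 0 allows, corresponded to 0.0996 to 0.209 CPM; this floor covers counting error only. Ly6a was 1133 ± 187 CPM (SD, n = 4) in the Sca-1+ libraries and 0.678 ± 0.524 CPM (SD, n = 5) in the Sca-1- libraries, in the direction of the labels. The endothelial marker Cdh5 (VE-cadherin) was at 235 to 297 CPM in the Sca-1+ libraries but at only 2.44 to 13.1 CPM in the Sca-1- libraries. The 8 megakaryocyte markers summed to 19163 to 63915 CPM in the Sca-1- libraries against 22.8 to 64.4 CPM in the Sca-1+ libraries, and the 5 general leukocyte markers to 1110 to 2130 CPM against 2.00 to 43.8 CPM. Sca-1+ 19 stood apart within its fraction with a neutrophil marker sum of 758 CPM against 8.43 to 56.4 CPM in the other 3, and Sca-1- 16 within its own with a basophil and mast cell sum of 12658 CPM against 61.9 to 1755 CPM in the other 4. In bulk libraries such as these, fewer cells of a type and less RNA per cell cannot be told apart. The numbers that open the sample titles, unlike the end numbers, also do not overlap between the fractions. The labels do not say what these opening numbers mark. Whatever they mark and the fraction cannot be told apart.

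**Figure D1:**
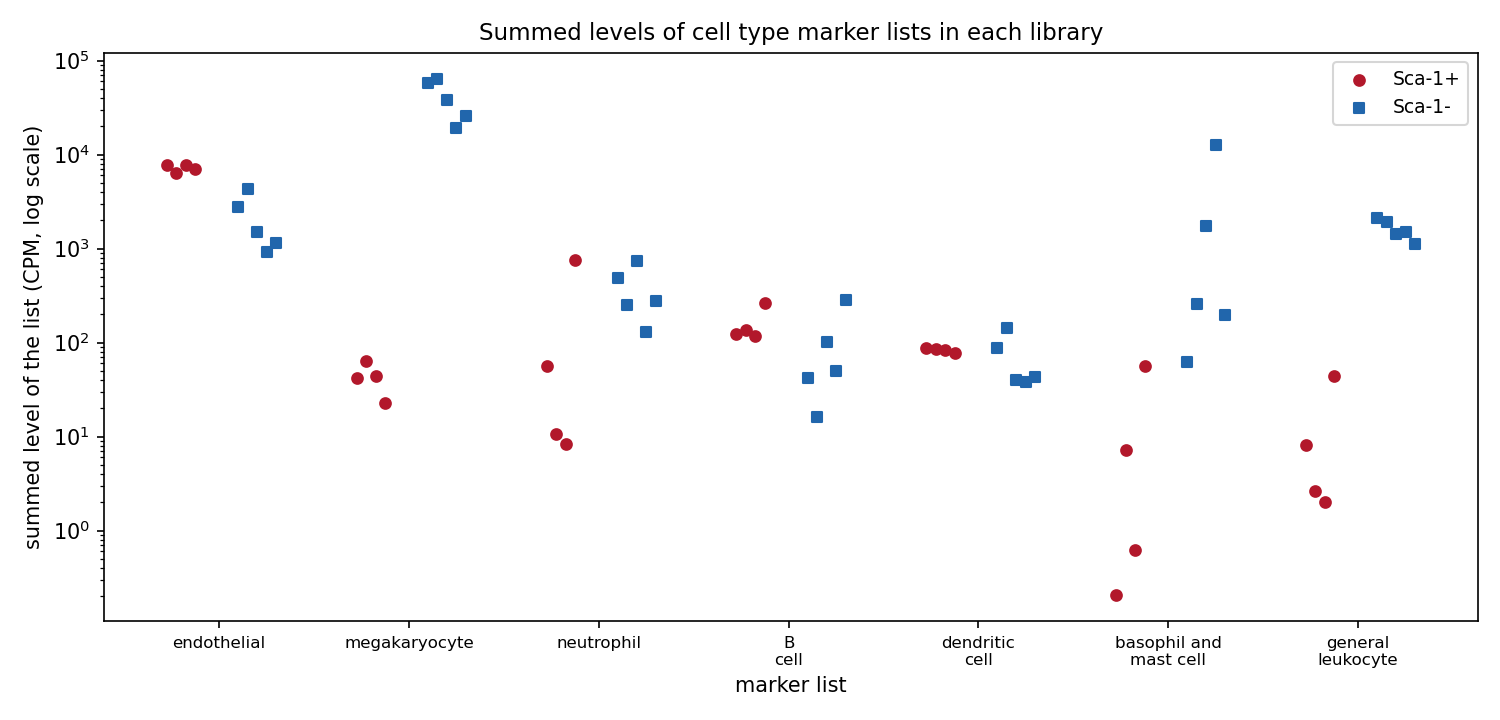
Summed CPM (log axis) of 7 lists of cell type markers, with 1 point per library, red circles for Sca-1+ and blue squares for Sca-1-. The endothelial sum was 6338 to 7836 CPM in the Sca-1+ libraries and 912 to 4271 CPM in the Sca-1- libraries, and the megakaryocyte and general leukocyte sums lay higher in every Sca-1- library than in any Sca-1+ library.

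Sequences of 4 promoters are shown because their genes had the clearest counts: Myd88, Tlr2 and Tlr3, which were higher in Sca-1+ cells, and Tlr12, a mouse receptor outside the 10 genes that had counts in the Sca-1- libraries alone. Each is the 250 bases before a RefSeq start site (GRCm38.p6), read 5′ to 3′ along the gene's strand. Of the 10 genes 8 had such an entry, and Tlr4 and Tlr7 had none. By the gene positions used here, which come from another annotation, the Myd88 and Tlr3 windows lie within their genes. The Tlr2 window overlaps its gene in part, and the Tlr12 window lies before its gene. Capitals mark the letters that match 1 of 4 motifs on either strand. The NF-kB consensus occurred in 3.90% of the 32851 mouse promoter windows of the same length, and the interferon response element in 0.499%; both were settled on after looser forms had been tried on these windows. The motif of ETS factors, searched as GGAAGT, was found in 19.7% of the windows, and that of GATA factors in 9.99% of them. For the latter the letters searched were AGATAA.
Myd88, chr9:119340019-119340268, minus strand: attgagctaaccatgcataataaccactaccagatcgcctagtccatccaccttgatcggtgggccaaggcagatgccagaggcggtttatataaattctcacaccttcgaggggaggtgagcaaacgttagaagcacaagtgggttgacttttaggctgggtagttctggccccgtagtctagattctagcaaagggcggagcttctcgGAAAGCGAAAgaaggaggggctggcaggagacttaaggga
Tlr2, chr3:83841609-83841858, minus strand: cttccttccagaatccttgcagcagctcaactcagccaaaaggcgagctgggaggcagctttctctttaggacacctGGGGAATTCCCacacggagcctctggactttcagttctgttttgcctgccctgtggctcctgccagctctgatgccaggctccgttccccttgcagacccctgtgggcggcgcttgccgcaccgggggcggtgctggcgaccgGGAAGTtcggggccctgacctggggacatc
Tlr3, chr8:45410381-45410630, minus strand: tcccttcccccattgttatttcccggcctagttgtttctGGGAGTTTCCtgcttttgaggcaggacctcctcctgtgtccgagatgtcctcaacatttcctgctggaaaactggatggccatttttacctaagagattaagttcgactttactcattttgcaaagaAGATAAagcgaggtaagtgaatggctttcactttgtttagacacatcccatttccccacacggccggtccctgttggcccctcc
Tlr12, chr4:128618620-128618869, minus strand: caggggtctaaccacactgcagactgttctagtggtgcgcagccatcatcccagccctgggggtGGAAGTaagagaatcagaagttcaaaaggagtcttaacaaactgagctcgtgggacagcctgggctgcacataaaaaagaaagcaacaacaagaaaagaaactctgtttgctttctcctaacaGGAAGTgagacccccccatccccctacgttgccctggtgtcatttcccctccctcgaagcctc
The Tlr2 window held NF-kB letters in 1 stretch, matched in overlapping registers, and 1 ETS match. The Tlr3 window held 1 NF-kB match and 1 GATA match, the Myd88 window 1 interferon response match, and the Tlr12 window 2 ETS matches. These matches describe the letters only.

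Among the 10 genes, Myd88, Tlr2, Tlr3 and Tlr4 were higher in Sca-1+ cells by edgeR's quasi-likelihood test, none was lower, Tlr6 and Tlr8 did not pass the threshold (Benjamini-Hochberg adjusted p of 0.05 over all 15937 genes tested), and Tlr1, Tlr5, Tlr7 and Tlr9 had too few counts to be tested. Of all genes tested, 44.8% were called, 23.3% higher and 21.4% lower, so a call in either direction was common in this comparison. The median log2 fold change of the 6 tested genes was 2.46, beside 0.07 over all genes tested. Tlr4, Tlr6 and Tlr8 passed the filter only through the Sca-1+ libraries, with over 3 counts in 3, 2 and 2 of the 5 Sca-1- libraries. The filter thus favoured high values among the 6 genes, and their median is a description only. The directions of the 6 genes held with TMM and with each of 3 other general scalings (DESeq2's factors, the upper quartile, the total alone). When libraries were scaled to the summed endothelial markers, Myd88, Tlr2 and Tlr6 changed sign. That scaling moved the median log2 fold change of all genes by -2.25, and library size alone moved it by 0.35; called genes split into 3721 higher and 3416 lower with TMM, 4158 and 2431 with library size alone, and 560 and 10286 with the endothelial scaling. Pecam1 and Esam, which platelets and megakaryocytes also carry, made up 69.9% to 95.5% of the endothelial sum in the Sca-1- libraries and 32.6% to 41.6% in the Sca-1+ libraries. Without these genes the sum was 3939 to 5271 CPM in the Sca-1+ libraries and 193 to 337 CPM in the Sca-1- libraries. A scaling to that smaller sum was not run, so signs under the endothelial scaling hold only with Pecam1 and Esam included.

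**Figure D2:**
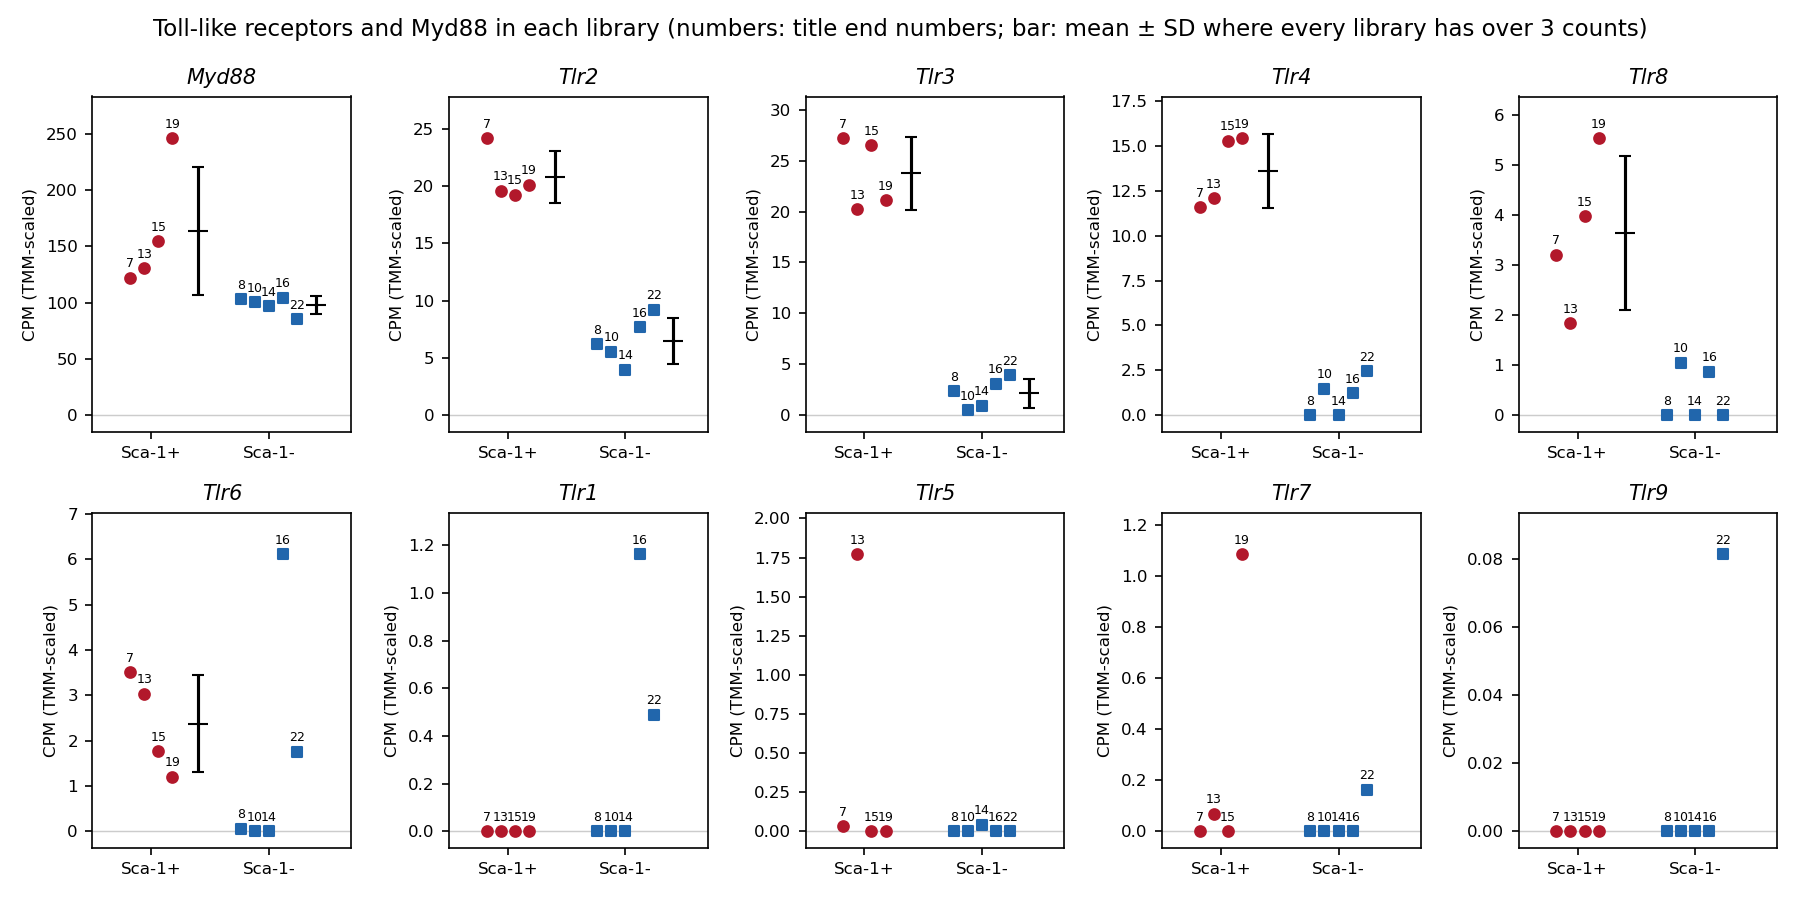
CPM of the 10 genes in each library (1 panel per gene, each with its own axis), red circles for Sca-1+ and blue squares for Sca-1-, with the title's end number beside each point and the mean ± SD as a bar where every library of a fraction held over 3 counts. The fractions did not overlap for Myd88, Tlr2, Tlr3, Tlr4 and Tlr8, and overlapped for the others. How common such separation was among all genes is not given here, while 44.8% of all genes tested were called.

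TLR4 is the lipopolysaccharide receptor. Tlr4 (ENSMUSG00000039005, chromosome 4, 66827584 to 66930284, GRCm38) had 340, 355, 443 and 399 counts in Sca-1+ 7, 13, 15 and 19, or 11.6, 12.1, 15.3 and 15.4 CPM. It had 0, 21, 0, 37 and 60 counts in Sca-1- 8, 10, 14, 16 and 22, or 0, 1.47, 0, 1.23 and 2.44 CPM. Every Sca-1+ library lay above every Sca-1- library, and no Tlr4 count was found in Sca-1- 8 and 14. The log2 fold change was 3.71 ± 1.06 (SE; edgeR adjusted p = 0.0164). Without Sca-1- 22, the Sca-1- library with the most Tlr4, it was 4.33, and with the endothelial scaling it was 1.32 (edgeR adjusted p = 0.340).

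The genes for 3 proteins that hand lipopolysaccharide to TLR4 rose with it under TMM, of which Lbp changed sign with the endothelial scaling. Cd14, the co-receptor that loads lipopolysaccharide, was at 156, 226, 195 and 93.5 CPM in the Sca-1+ libraries and at 5.83, 4.89, 23.0, 7.37 and 6.84 CPM in the Sca-1- libraries. Ly96, which encodes MD-2, the subunit that binds lipopolysaccharide beside TLR4, was at 45.3, 89.5, 83.8 and 29.8 CPM and at 3.54, 1.12, 2.67, 9.13 and 1.59 CPM. The fractions were separate for both genes, with Sca-1+ 19 the lowest of its fraction in each. The log2 fold changes were 4.12 ± 0.511 for Cd14 and 4.09 ± 0.629 for Ly96 (SE; edgeR adjusted p = 0.000171 and 0.000566). Ly96 was 4.79 without Sca-1- 16, and with the endothelial scaling it stayed positive at 1.58 without passing the threshold (edgeR adjusted p = 0.118). Lbp, the binding protein that carries lipopolysaccharide in plasma, rose less (log2 fold change 1.81 ± 0.421 SE, edgeR adjusted p = 0.00577; -0.54 with the endothelial scaling). Ly96 and Lbp, and below Unc93b1 and Tirap, were named after their values were seen.

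TLR2 recognises bacterial lipoproteins, paired with TLR1 or TLR6. Tlr2 (ENSMUSG00000027995, chromosome 3, 83836272 to 83841767) had 710, 576, 557 and 520 counts in Sca-1+ 7, 13, 15 and 19, or 24.2, 19.6, 19.2 and 20.1 CPM. The Sca-1- libraries 8, 10, 14, 16 and 22 had 103, 79, 93, 231 and 226 counts, or 6.19, 5.52, 3.95, 7.67 and 9.20 CPM. Tlr2 was therefore present in all 9 libraries, and the lowest Sca-1+ library was 2.09 times the highest Sca-1- library. The log2 fold change was 1.67 ± 0.286 (SE; edgeR adjusted p = 0.00101), and it was -0.64 (edgeR adjusted p = 0.364) with the endothelial scaling. Cd36, a scavenger receptor for lipids that also works as a TLR2 and TLR6 co-receptor, had the largest rise among the partner genes: 1162, 2247, 2304 and 3767 CPM in the Sca-1+ libraries against 4.81, 3.28, 5.90, 42.0 and 18.6 CPM in the Sca-1- libraries, a log2 fold change of 7.31 ± 0.899 (SE; edgeR adjusted p = 0.000166), or 8.17 without Sca-1- 16.

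The genes of TLR6 and TLR1, the alternative partners of TLR2, overlapped between the fractions. Tlr6 (ENSMUSG00000051498, chromosome 5, 64952031 to 64960097) had 103, 89, 51 and 31 counts in Sca-1+ 7, 13, 15 and 19, or 3.51, 3.03, 1.76 and 1.20 CPM. Its Sca-1- counts in 8, 10, 14, 16 and 22 were 1, 0, 0, 184 and 43, or 0.0601, 0, 0, 6.11 and 1.75 CPM. The highest level of all 9 libraries was thus in a Sca-1- library, while 3 of the 5 were at or near 0. The log2 fold change of 0.56 ± 1.38 did not pass the threshold (SE; edgeR adjusted p = 0.764), was 2.33 without Sca-1- 16, again below the threshold, and was -2.30 with the endothelial scaling. Tlr1 (ENSMUSG00000044827, chromosome 5, 64924679 to 64933563) had no count in any Sca-1+ library and in Sca-1- 8, 10 and 14, with 35 counts (1.16 CPM) in Sca-1- 16 and 12 counts (0.489 CPM) in Sca-1- 22. The libraries with Tlr1 counts were the same as the Sca-1- libraries with over 3 Tlr6 counts, and Sca-1- 16 is the library with the highest basophil and mast cell marker sum; the part of other cells in these counts was not tested.

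Tlr1 and Tlr6 are neighbours on chromosome 5 and share coding sequence, so reads can belong to either. The longest stretch that their transcripts share is 229 bases, inside the open reading frame of both, at chr5:64925537-64925765 in Tlr1 and chr5:64953828-64954056 in Tlr6 (GRCm38, minus strand).
Tlr1 and Tlr6, shared stretch: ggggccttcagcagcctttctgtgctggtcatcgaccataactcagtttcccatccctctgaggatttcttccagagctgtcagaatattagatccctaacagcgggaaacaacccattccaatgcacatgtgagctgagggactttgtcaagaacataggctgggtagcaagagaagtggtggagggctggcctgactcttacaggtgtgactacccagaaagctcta
Of all windows of 50 bases, 15.3% of the Tlr1 transcript and 12.5% of the Tlr6 transcript occurred in the other, while no other pair among these receptors shared a window of that length. How the authors counted such reads is not given in the sources used here, so the values of both genes are uncertain to that extent.

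TLR5 is the flagellin receptor. Tlr5 (ENSMUSG00000079164, chromosome 1) had 1, 52, 0 and 0 counts in Sca-1+ 7, 13, 15 and 19 and 0, 0, 1, 0 and 0 counts in Sca-1- 8, 10, 14, 16 and 22. Nearly all Tlr5 counts of the series therefore came from Sca-1+ 13, at 1.77 CPM. The gene did not pass the filter on low counts.

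Among Tlr3, Tlr7, Tlr8 and Tlr9, the genes of endosomal receptors within the 10, Tlr3 had the highest mean level in both fractions. TLR3 binds RNA duplexes and signals through TRIF. Tlr3 (ENSMUSG00000031639, chromosome 8, 45395665 to 45411080) had 799, 595, 768 and 546 counts in Sca-1+ 7, 13, 15 and 19, or 27.2, 20.3, 26.5 and 21.1 CPM. In Sca-1- 8, 10, 14, 16 and 22 there were 39, 7, 22, 93 and 96 counts, or 2.34, 0.489, 0.933, 3.09 and 3.91 CPM. The fractions were widely separate, the lowest Sca-1+ library being 5.18 times the highest Sca-1- library. The log2 fold change was 3.45 ± 0.54 (SE; edgeR adjusted p = 0.000621), and 0.98 (edgeR adjusted p = 0.288) with the endothelial scaling. An antisense gene, Gm45542, overlaps 7.32% of the Tlr3 exon bases, and since the use of strand in counting is not given, that share of the count is uncertain.

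TLR8 and TLR7 bind single-stranded RNA and their genes lie side by side on the X chromosome. Tlr8 (ENSMUSG00000040522, X, 167242696 to 167264329) had 94, 54, 115 and 143 counts in Sca-1+ 7, 13, 15 and 19, or 3.20, 1.84, 3.97 and 5.54 CPM, and 0, 15, 0, 26 and 0 counts in Sca-1- 8, 10, 14, 16 and 22, or 0, 1.05, 0, 0.863 and 0 CPM. The fractions did not overlap, yet the log2 fold change of 3.25 ± 1.27 did not pass the threshold (SE; edgeR adjusted p = 0.0589). This call turned on single libraries: without Sca-1- 10 the log2 fold change was 3.90 (edgeR adjusted p = 0.0465), and without Sca-1- 16 it was 3.88 (edgeR adjusted p = 0.0488). Tlr7 (ENSMUSG00000044583) had 28 counts in Sca-1+ 19, 2 in Sca-1+ 13, 4 in Sca-1- 22 and none in the other 6 libraries. Its highest level, 1.08 CPM, was thus in the Sca-1+ library with the highest neutrophil marker sum of that fraction, whose part was not tested. Tlr9 (ENSMUSG00000045322, chromosome 9), which encodes the receptor for unmethylated CpG DNA, had 2 counts in Sca-1- 22 and none in the other 8 libraries. Unc93b1, the chaperone that brings the nucleic acid receptors to endosomes, was at 119, 125, 90.9 and 116 CPM in the Sca-1+ libraries and at 26.7, 12.4, 39.0, 25.4 and 60.2 CPM in the Sca-1- libraries (log2 fold change 1.78 ± 0.381 SE, edgeR adjusted p = 0.00367; -0.59 with the endothelial scaling).

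Among the 10 genes, Myd88, the adaptor, was far more abundant than any receptor and differed least of the 4 called. Myd88 (ENSMUSG00000032508, chromosome 9, 119335934 to 119341411) had 3588, 3835, 4478 and 6364 counts in Sca-1+ 7, 13, 15 and 19, or 122, 131, 155 and 246 CPM. In Sca-1- 8, 10, 14, 16 and 22 there were 1712, 1436, 2281, 3149 and 2091 counts, or 103, 100.3, 96.8, 105 and 85.1 CPM. The 5 Sca-1- libraries lay close together, and the Sca-1+ libraries lay above them with Sca-1+ 19 far above the other 3. The log2 fold change was 0.74 ± 0.231 (SE; edgeR adjusted p = 0.0244), the lowest Sca-1+ library being 1.17 times the highest Sca-1- library. The call was lost when any of 5 libraries was left out: the log2 fold change was 0.48 without Sca-1+ 19 (edgeR adjusted p = 0.0706), and 0.66, 0.69, 0.62 and 0.69 without Sca-1- 8, 10, 14 and 22 (edgeR adjusted p = 0.0654, 0.0505, 0.0849 and 0.0527). With the endothelial scaling Myd88 was lower in Sca-1+ cells (log2 fold change -1.46, edgeR adjusted p = 0.0183). Of the Myd88 exon bases, 11.3% overlap Acaa1a on the opposite strand, which makes that share of its count uncertain.

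**Figure D3:**
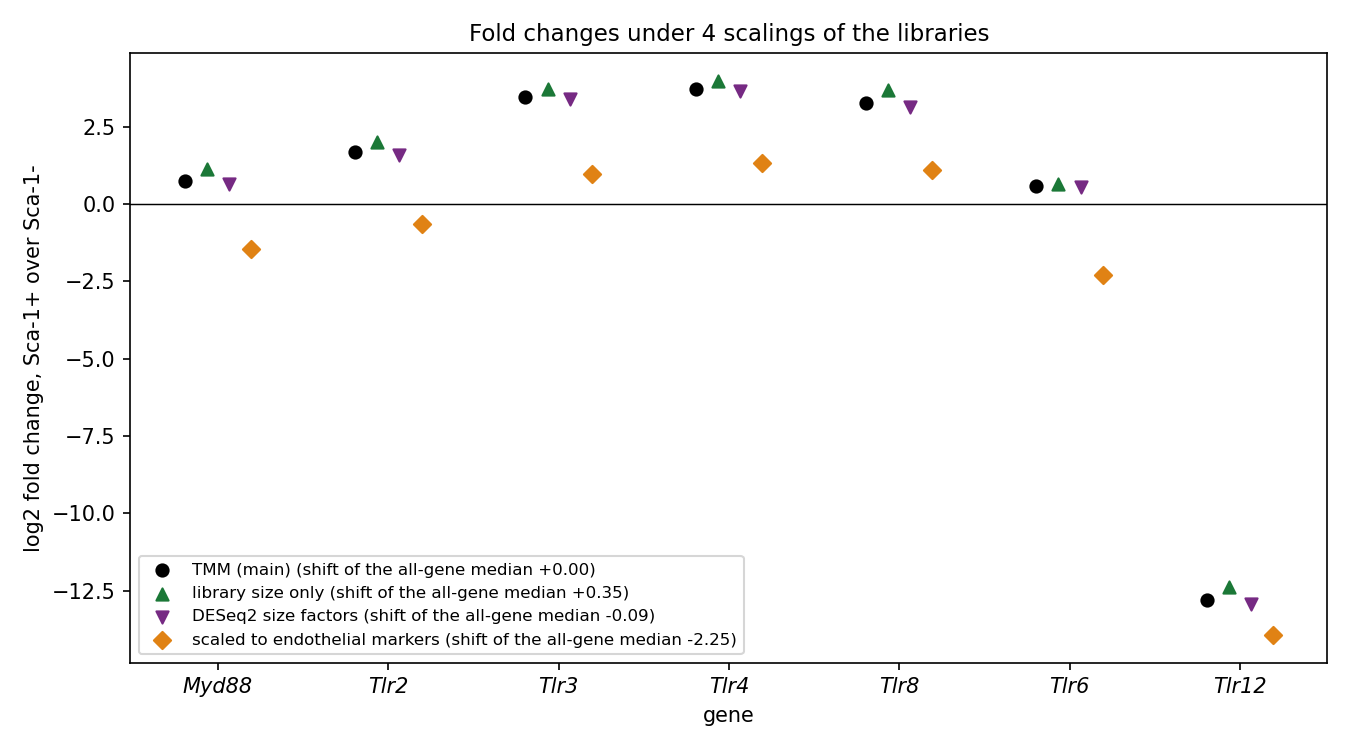
Log2 fold change (Sca-1+ over Sca-1-) of the 6 tested genes and of Tlr12 under 4 scalings of the libraries, with the shift of the median of all genes given for each. The 3 general scalings lie close together for every gene, while the endothelial scaling places Myd88 at -1.46, Tlr2 at -0.64 and Tlr6 at -2.30, on the other side of 0, and leaves Tlr12 negative.

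Per kilobase of exon, which allows levels of different genes to be compared, the order in Sca-1+ cells was Myd88 (63.5 ± 22.1 CPM per kb, SD, n = 4), Tlr2 (6.90 ± 0.763), Tlr3 (4.57 ± 0.69), Tlr4 (2.45 ± 0.369), Tlr8 (1.01 ± 0.43) and Tlr6 (0.637 ± 0.289), with Tlr5 and Tlr7 under 0.1 and Tlr1 and Tlr9 at 0. Neighbours down to Tlr4 and Tlr8 had ranges that did not overlap between libraries, whereas Tlr8 and Tlr6 overlapped, as did all lower neighbours. Among genes with a count in that fraction, Myd88 stood above 96.8%, Tlr2 above 77.1%, Tlr3 above 71.5% and Tlr4 above 63.1%. In Sca-1- cells Myd88 (38.0 ± 2.996 CPM per kb, SD, n = 5) and Tlr2 (2.16 ± 0.669) again came first of the 10 genes, and neither overlapped the gene after it except that Tlr2 overlapped Tlr6 (0.425 ± 0.708). Tlr3 (0.413 ± 0.276), Tlr4 (0.185 ± 0.188), Tlr8, Tlr1, Tlr7, Tlr9 and Tlr5 followed, each overlapping its neighbour.

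**Figure D4:**
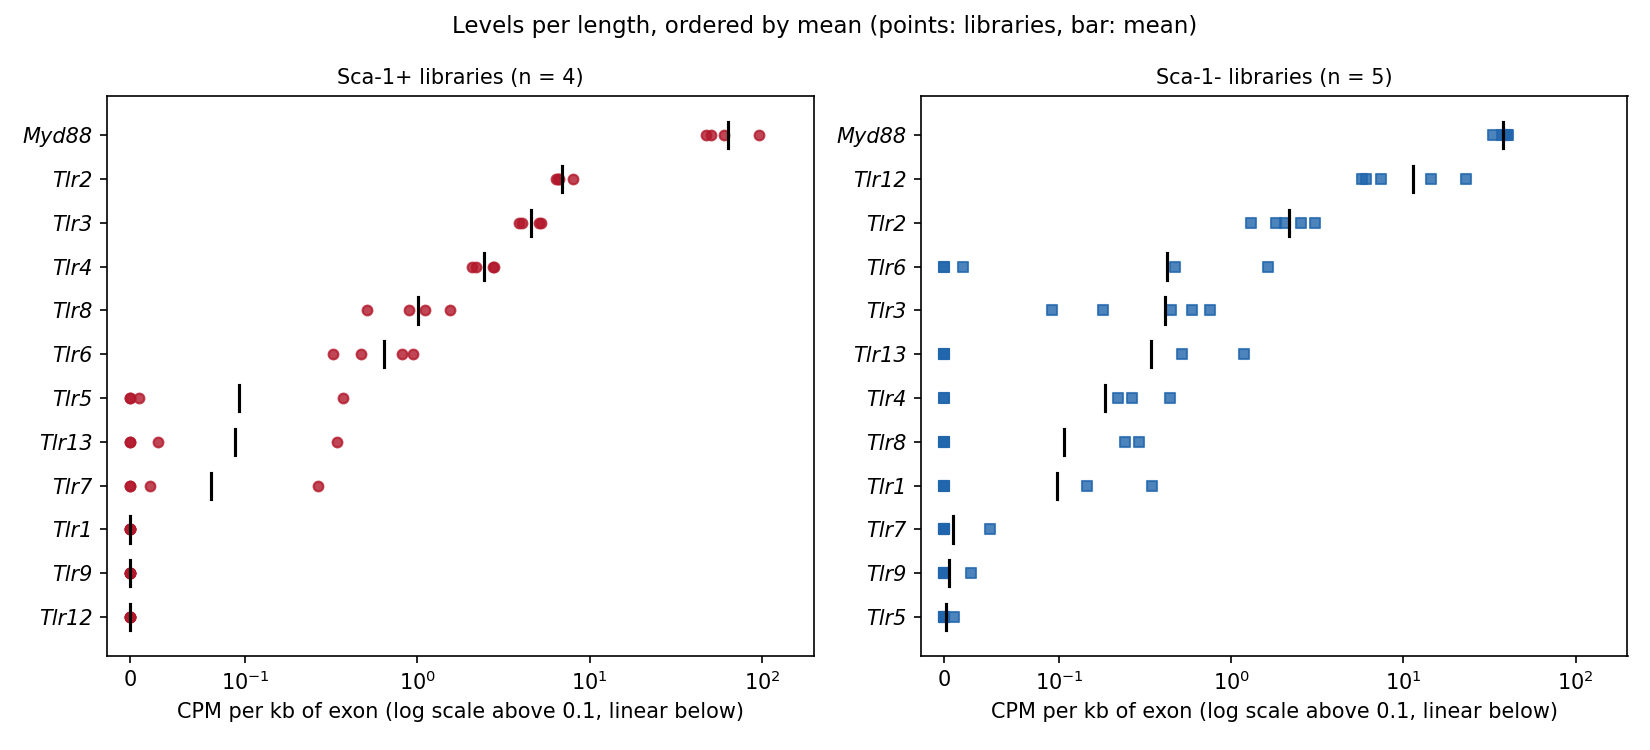
CPM per kb of exon (linear below 0.1 and logarithmic above) of the 10 genes with Tlr12 and Tlr13 in the 4 Sca-1+ libraries (left) and the 5 Sca-1- libraries (right), ordered by mean, with points for libraries and bars for means. Tlr2, Tlr3 and Tlr4 follow Myd88 in the Sca-1+ libraries, while in the Sca-1- libraries Tlr12, at 5.74 to 23.2 CPM per kb, lies between Myd88 and Tlr2.

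The mouse has 3 further receptors, for which humans have no working gene. Tlr12, a receptor for profilin of protozoa, had no count in any Sca-1+ library but 768, 1056, 553, 549 and 472 counts in Sca-1- 8, 10, 14, 16 and 22, or 46.1, 73.7, 23.5, 18.2 and 19.2 CPM. Against a floor of 3 counts per library, Sca-1+ cells held at least 341-fold less (edgeR adjusted p = 0.000105), and Tlr12 kept this direction under each scaling and with any 1 library left out. The order of the Sca-1- libraries by Tlr12, from Sca-1- 10 and 8 through 14 and 22 to 16, was that of their megakaryocyte marker sums (63915, 58247, 38169, 25861 and 19163 CPM), and the gene most like Tlr12 across the 9 libraries was the megakaryocyte marker Itga2b. The part of such cells in Tlr12 was not tested. Tlr13 was found at 3 and 38 counts in Sca-1+ 7 and 19 and at 37 and 73 counts in Sca-1- 8 and 10, and Tlr11 had no count at all.

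Of the tested leukocyte markers, 1 of 4 for B cells was called higher in Sca-1+ cells and 3 lower. For dendritic cells 1 of 2 was higher and 1 lower, and for neutrophils 0 of 8 higher and 1 lower. For basophils and mast cells 5 of 5 were lower, as were 4 of 5 general leukocyte markers, with none higher. Across the whole comparison the shares were 23.3% higher and 21.4% lower. With the endothelial scaling none of these markers was higher, but that scaling left only 560 genes higher against 10286 lower. The macrophage markers Csf1r and Adgre1 (F4/80), which do not stand for the whole list of monocyte and macrophage markers, overlapped between the fractions, Csf1r at 2.66 to 7.32 CPM in the Sca-1+ libraries and 2.85 to 6.28 CPM in the Sca-1- libraries, and Adgre1 at 0.232 to 0.852 and 0.0814 to 4.16 CPM. The B cell sum was 117 to 264 CPM in the Sca-1+ libraries and 15.99 to 283 CPM in the Sca-1- libraries. Without Ebf1 it was 0.414 to 3.64 CPM in the Sca-1+ libraries and 11.2 to 221 CPM in the Sca-1- libraries. The dendritic cell sum was 77.4 to 88.3 CPM in the Sca-1+ libraries, mostly Zbtb46. In the Sca-1- libraries it was 38.5 to 142 CPM, mostly Xcr1 except in Sca-1- 16, where Zbtb46 was at 23.3 CPM and Xcr1 at 13.3 CPM. Csf1r and Adgre1, and the transcription factor genes Ebf1 and Zbtb46, were singled out after their values were seen. The part of other cells in the values of the receptors was not tested.

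Further genes of the pathway were taken from 7 lists by role. Of 62 such genes 58 were tested, and 26 were higher, 13 lower and 19 not called, with a median log2 fold change of 0.44 beside 0.07 for all genes tested and 23.3% higher and 21.4% lower among them. With the endothelial scaling 4 were higher and 34 lower. The lists did not divide alike: partners and transcription factors had calls in the higher direction alone, with TMM and the other general scalings, and kinases were split.

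**Figure D5:**
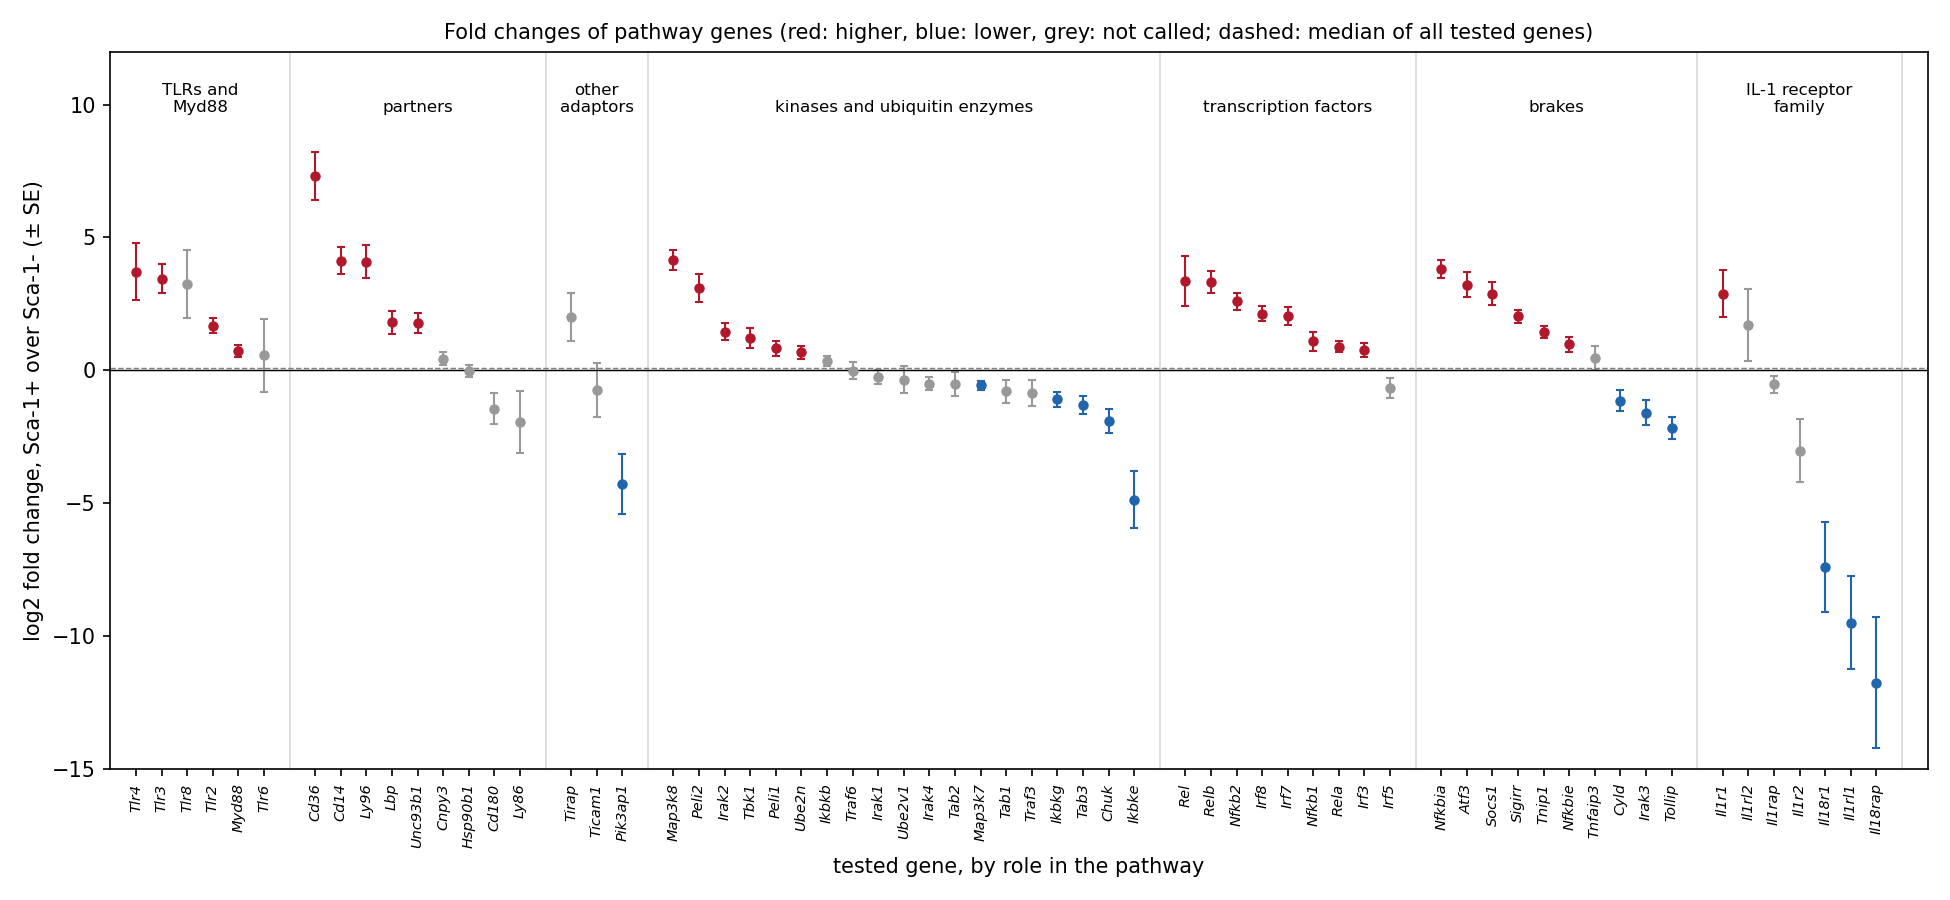
Log2 fold change (Sca-1+ over Sca-1-, TMM scaling) with its SE for every tested gene of the pathway, by role, with red for higher, blue for lower and grey for not called. The transcription factors hold 8 red points and no blue point and the kinases and ubiquitin enzymes 6 red and 5 blue points; with the endothelial scaling these became 0 higher and 3 lower, and 1 higher and 15 lower.

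Among the 9 partners for ligand binding and trafficking, 5 were higher (Cd14, Ly96, Lbp, Cd36 and Unc93b1) and 4 were not called, with a median log2 fold change of 1.78; with the endothelial scaling 2 were higher and 4 lower. Of 5 other adaptors 3 were tested. Tirap, which bridges MyD88 to TLR2 and TLR4, was at 27.3, 25.0, 16.4 and 12.5 CPM in the Sca-1+ libraries and at 9.79, 4.12, 0, 5.88 and 5.25 CPM in the Sca-1- libraries. Its fractions did not overlap, but the log2 fold change of 2.02 ± 0.9 missed the threshold (SE; edgeR adjusted p = 0.0925), although it passed without Sca-1- 14, where it was at 0 (1.60, edgeR adjusted p = 0.00714), and with limma voom (3.42, adjusted p = 0.0392). Pik3ap1 (BCAP), an adaptor of B cells and macrophages, was lower in Sca-1+ cells (log2 fold change -4.28 ± 1.13 SE, edgeR adjusted p = 0.011; -4.96 without Sca-1+ 13 and -3.50 without Sca-1- 22), a call lost without Sca-1+ 19 and Sca-1- 22 together (-3.68, edgeR adjusted p = 0.0539), with 29.4 CPM in Sca-1- 22 and at most 1.19 CPM in the Sca-1+ libraries.

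The 19 kinases and ubiquitin enzymes gave 6 higher, 5 lower and 8 not called, with a median log2 fold change of -0.35. The largest rise was that of Map3k8 (TPL2), the kinase that leads from NF-kB signaling to ERK, at 87.1, 134, 106 and 205 CPM in the Sca-1+ libraries and 3.42 to 10.5 CPM in the Sca-1- libraries (log2 fold change 4.15 ± 0.37 SE, edgeR adjusted p = 3.55e-05). Peli2, a ubiquitin ligase of the IRAK complex, rose by 3.10 ± 0.523 (log2, SE; edgeR adjusted p = 0.000954; 0.71 with the endothelial scaling). Lower genes were led by Ikbke (IKK-epsilon), at 0 to 1.47 CPM in the Sca-1+ libraries and 9.40 to 27.4 CPM in the Sca-1- libraries (log2 fold change -4.87 ± 1.08 SE, edgeR adjusted p = 0.00436; -5.63 without Sca-1+ 7). Chuk (IKK-alpha) fell by 1.91 on the log2 scale (edgeR adjusted p = 0.00761).

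Transcription factors at the end of the pathway were the most uniform list, with 8 of 9 higher, 1 not called and a median log2 fold change of 2.06. Rel and Relb, subunits of NF-kB, rose by 3.36 ± 0.925 and 3.32 ± 0.419 (log2, SE; edgeR adjusted p = 0.0135 and 0.00019). Rel was at 15.1 to 22.9 CPM in the Sca-1+ libraries and at 0 to 5.01 CPM in the Sca-1- libraries, its log2 fold change being 4.09 without Sca-1- 22. With the endothelial scaling Rel and Relb were at 0.83 and 0.92 (edgeR adjusted p = 0.508 and 0.250).

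Of the 10 genes that restrain the pathway 6 were higher, 3 lower and 1 not called, with a median log2 fold change of 1.21. Nfkbia (IkB-alpha), the inhibitor that NF-kB itself induces, was at 1647, 1907, 1969.8 and 2587 CPM in the Sca-1+ libraries and at 70.3 to 190 CPM in the Sca-1- libraries (log2 fold change 3.83 ± 0.339 SE, edgeR adjusted p = 3.48e-05; 1.45 with the endothelial scaling, still past the threshold). Atf3, a stress-induced repressor, rose by 3.22 ± 0.463 (log2, SE; edgeR adjusted p = 0.000383; 0.86 with the endothelial scaling). In the opposite direction, Tollip, which restrains IRAK1, fell by 2.15 on the log2 scale (edgeR adjusted p = 0.00194). Irak3 (IRAK-M), a kinase-dead inhibitor, was at 21.4 to 50.9 CPM in the Sca-1+ libraries and 51.8 to 197 CPM in the Sca-1- libraries (log2 fold change -1.59 ± 0.471 SE, edgeR adjusted p = 0.0191), a call lost without Sca-1+ 7 (-1.42, edgeR adjusted p = 0.0592) or Sca-1+ 15 (-1.41, edgeR adjusted p = 0.0602).

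Receptors of the IL-1 family signal through MyD88 as well, and the 7 tested gave 1 higher, 3 lower and 3 not called, with a median log2 fold change of -3.02. Il1r1, the IL-1 receptor itself, was at 33.1, 31.6, 30.7 and 51.1 CPM in the Sca-1+ libraries and at 9.91, 4.19, 0, 3.82 and 7.09 CPM in the Sca-1- libraries (log2 fold change 2.87 ± 0.884 SE, edgeR adjusted p = 0.0228). The fractions did not overlap, but the call was lost without Sca-1+ 19 (2.67, edgeR adjusted p = 0.0571) or Sca-1- 10 (2.75, edgeR adjusted p = 0.0512), without Sca-1+ 19 and Sca-1- 22 together (2.83, edgeR adjusted p = 0.0798) and with the endothelial scaling (0.78, edgeR adjusted p = 0.486). Il18rap, a subunit of the IL-18 receptor, and Il1rl1 (ST2), the IL-33 receptor of mast cells and basophils, had no count in any Sca-1+ library. In Sca-1- 8, 10, 14, 16 and 22 Il18rap was at 2.04, 10.6, 5.94, 67.8 and 0.489 CPM and Il1rl1 at 2.10, 3.98, 0.764, 10.99 and 0.326 CPM, so both were highest in Sca-1- 16, the library with the highest basophil and mast cell markers. Against a floor of 3 counts per library they were at least 164-fold and at least 34.3-fold lower in Sca-1+ cells (edgeR adjusted p = 0.00693 and 0.00395), bounds that Sca-1- 16 set in large part: without it they were 44.99-fold and 16.9-fold, a calculation added after the data were seen. Without Sca-1- 16 Il18rap kept its call (edgeR adjusted p = 0.00294), whereas Il1rl1 had too few counts to be tested without it or without Sca-1- 8, 10 or 14.

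The genes whose log2 CPM followed each receptor most closely over the 9 libraries are given as a description, since the points share the difference between the fractions. Among 9866 other genes of at least moderate level (mean log2 CPM of 3), Tlr2 was most like Plekha3 (Pearson's r 0.995), Nfkb2 (0.994), which encodes an NF-kB subunit, and Ankrd46 (0.989). Tlr3 was most like Sh3tc1 (0.997), Gja4 (0.997), the connexin 37 gene of arterial endothelium, and Sept10 (0.996). Tlr4 was most like Ifi44 (0.996), an interferon-induced gene, Tial1 (0.987) and Zfp292 (0.978). For Tlr8 the closest were Ylpm1 (0.977), Ggnbp2 (0.970) and Ets1 (0.965), for Tlr6 Aacs (0.959), Alg11 (0.939) and Tdp2 (0.937), and for Myd88 Pacs2 (0.937), Csrnp1 (0.928) and Rcan1 (0.927). Over 0.9 lay 1144 genes for Tlr2 and 1245 for Tlr3 but 179 for Tlr4, 42 for Tlr6, 41 for Tlr8 and 16 for Myd88. For Tlr12, added after its values were seen, the closest were Itga2b (0.9996), Gad1 (0.999) and Slamf1 (0.999).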

How the data were processed

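The authors deposited raw gene counts of all 9 libraries in 1 table, made from SMART-Seq v4 libraries of poly(A) RNA. The submitters' processing notes name STAR, featureCounts and mm10; versions and the use of strand are not given in the sources used here. All sample columns were used. Genes passing edgeR's filterByExpr (minimum count of 10, minimum total of 15) were normalized by TMM and tested with edgeR 4.0.16 (quasi-likelihood F-test, two-sided, Benjamini-Hochberg adjustment, R 4.3.3), which was also tested on simulated data. SEs came from the F statistic, and a prior count of 2 was added for log2 CPM. DESeq2 1.42.0 and limma 3.58.1 served as alternatives, with other scalings, filters and left-out libraries. Gene positions and exon lengths came from GENCODE (GRCm38), promoters from RefSeq. Replicates were separate libraries, the least different pair differing by a chi-square of 36.8 per degree of freedom.

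The members and gene lists were chosen with earlier results of these data known. Named were all 10 genes, up to 2 higher and 2 lower genes of each list with the largest change among those called, the 3 genes most like each tested gene, and the marker lists. The summed level of the monocyte and macrophage list is not reported here.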

Additional observations from a re-analysis of the deposited data

Results flagged for a closer look

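In 7 of 70 groups of libraries examined, 1 library lay far from the others of its fraction by Dixon's criterion, and chance flags about 1 in 20 groups. Tlr5 was at 1.77 CPM in Sca-1+ 13 against 0 to 0.0341 CPM in the other Sca-1+ libraries. The next 3 rest on 1 to 4 counts: Tlr5 at 0.0424 CPM in Sca-1- 14, Tlr7 at 0.163 CPM in Sca-1- 22 and Tlr9 at 0.0814 CPM in Sca-1- 22, each with the other Sca-1- libraries at 0. Cd14 was at 23.0 CPM in Sca-1- 14 against 4.89 to 7.37 CPM in the other Sca-1- libraries, still below each Sca-1+ library. Il1r1 was at 51.1 CPM in Sca-1+ 19 against 30.7 to 33.1 CPM in the rest of that fraction, and at 0 CPM in Sca-1- 14 against 3.82 to 9.91 CPM in the rest of its own.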

How the results depend on the processing

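The log2 fold changes of the 6 tested genes depended most on the scaling. With libraries scaled to the summed endothelial markers 1 of the 10 genes was called, Myd88, at -1.46 and so lower in Sca-1+ cells; Tlr2 (-0.64), Tlr6 (-2.30), Lbp (-0.54), Unc93b1 (-0.59) and Tirap (-0.13) changed sign without passing the threshold, and Tlr3 (0.98) and Tlr4 (1.32) stayed positive below it. The sum used included Pecam1 and Esam, and a scaling without them was not run. With the endothelial scaling pathway genes were called 4 higher and 34 lower, and over the other alternatives 19 to 28 were higher and 8 to 15 lower. Myd88 lost its call with DESeq2 size factors in edgeR (0.64), without Sca-1+ 19 and Sca-1- 22 together (0.43) and over the 3 pairs of libraries with consecutive end numbers, with the pairing as a replicate block (0.41) or without it (0.42); with 1 library left out it ranged from 0.48 to 0.86. Tlr8 passed the threshold with library size alone (3.69), a minimum count of 50 (3.24), the DESeq2 test (3.15) and limma voom (4.97), and ranged from 2.79 to 3.90 with 1 library left out. The cause of these shifts was not tested. In the titles 1 number is common to Sca-1+ 15 and Sca-1- 16, without saying what it marks. Sca-1+ 13 and Sca-1- 14 share the tag CD452, which Sca-1- 22 holds too, and the pair 7 with 8 rests on its end numbers. Across 15937 genes the deviations from the fraction means correlated at 0.042 for 15 and 16 and at 0.147 and 0.148 for the others. No other combination of libraries was set beside these values, so they cannot decide whether the libraries are paired. The main test used no pairing because the labels do not give one. The block left 3 of the 10 genes called, as did the same 6 libraries without it, and 4340 against 5360 genes in all. With the block Ikbke (-4.80, edgeR adjusted p = 0.0588), Irak3 (-1.69, 0.0643) and Il1r1 (3.75, 0.126) lost their calls, and over the same libraries without it Pik3ap1 (-3.99, 0.0522) and Il1r1 (2.80, 0.144) did. Tlr2, Tlr3 and Tlr4 kept direction and call under each alternative except the endothelial scaling. Tlr1, Tlr5, Tlr7 and Tlr9 had too few counts to pass the filter; fitted without it, edgeR gave them adjusted p of 0.0742, 0.0663, 0.239 and 0.262.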
